A study of Caenorhabditis elegans with 6 samples.

Results

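The sites described here are the TSS-distal peaks of egl-9 mutants, that is, the nuclear HIF-1 peaks centred more than 500 bp from the transcription start site (TSS) of every annotated protein-coding gene. The egl-9 list holds 604 nuclear peaks, of which 340 met this rule (56.3%), and the other 264 are called proximal. The rule used position alone, so signal, sequence, noncoding genes and presence in the control list played no part in it. HIF-1 was mapped by ChIP-seq, in which DNA bound to a protein is precipitated and sequenced. Whole L4 larvae were grown at 20 °C in 21% O2 on NGM plates with OP50 bacteria, and a HIF-1::GFP fusion was pulled down with antibodies against GFP.

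The egl-9 mutants (OR3350) carried egl-9(sa307), hif-1(ia4), unc-119(ed3) and the transgene odIs131[hif-1::gfp, unc-119(+)]. The control strain (OR3349) carried hif-1(ia4), unc-119(ed3) and the same transgene, with egl-9 intact, so neither strain had endogenous HIF-1. The study describes odIs131 as a single integrated line, made from a genomic fosmid and inserted on the X chromosome, with nuclear fluorescence in nearly all tissues of egl-9 mutants and little in the control strain. For each of 2 genotypes, 2 immunoprecipitates and 1 pooled input were sequenced, 6 libraries in all, and 1 set of reproducible peaks per genotype was deposited. The study gives read depth as a range over the libraries and not for each one, and no value below has a replicate error. Intervals and exact tests cover the sampling of peaks only, and peaks that overlap or neighbour each other are not independent.

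HIF-1 is the transcription factor that answers low oxygen. EGL-9, a prolyl hydroxylase, marks it for degradation when oxygen is present, so HIF-1 is stable in egl-9 mutants even in room air. With its partner AHA-1 it binds hypoxia response elements (HREs), which share a core of ACGTG or GCGTG. C. elegans genes are compact and most known regulatory sequence lies close to promoters, and sites farther away can sit between genes, inside introns or beside genes for short RNAs.

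Sequences of the leading sites show how these cores are placed away from promoters. Each stretch below is read from the genome build WBcel235 on the plus strand, centred on the core nearest to the peak centre, with each ACGTG or GCGTG core (either strand) in capitals, so that CACGT and CACGC are the same cores read on the minus strand.
rhy-1, upstream, II:9160401-9160481: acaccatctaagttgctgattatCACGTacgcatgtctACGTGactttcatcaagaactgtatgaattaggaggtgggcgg
egl-9, upstream, V:10466690-10466770: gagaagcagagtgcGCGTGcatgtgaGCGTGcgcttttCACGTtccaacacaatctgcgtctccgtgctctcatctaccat
ZK470.4, in an intron of ZK470.2, X:4142258-4142338: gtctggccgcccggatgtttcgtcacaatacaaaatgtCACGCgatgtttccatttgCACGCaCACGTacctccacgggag
hlh-30, intron, IV:4026095-4026175: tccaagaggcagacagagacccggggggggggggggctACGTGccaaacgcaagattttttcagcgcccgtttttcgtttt
pck-1, upstream, III:67233-67313: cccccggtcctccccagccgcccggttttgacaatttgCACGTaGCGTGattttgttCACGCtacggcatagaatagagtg
nspe-6, downstream, II:12615554-12615634: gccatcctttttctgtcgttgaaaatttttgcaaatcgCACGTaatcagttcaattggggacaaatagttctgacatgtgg

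The stretches at egl-9, ZK470.4 and pck-1 each hold 3 cores, that at rhy-1 holds 2, and those at hlh-30 and nspe-6 hold 1. Sites without a core, and sites beside a small RNA gene, are shown for contrast with those above. The first 2 of the 3 stretches below hold no core and are centred on the peak centre, the second of them near a tRNA gene. The last holds 1 core and lies near a snoRNA gene.
F55G7.5, downstream, X:11937514-11937594: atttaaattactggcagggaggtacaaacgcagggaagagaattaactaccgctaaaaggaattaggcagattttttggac
xol-1, upstream, near tRNA gene C18A11.t2, X:8036431-8036511: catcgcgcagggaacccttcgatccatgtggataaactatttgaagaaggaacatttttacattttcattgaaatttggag
F55C5.17, in frm-7, near snoRNA gene C51F7.4, V:12303566-12303646: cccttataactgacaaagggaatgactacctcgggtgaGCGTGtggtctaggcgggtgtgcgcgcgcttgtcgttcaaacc

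Several of the strongest distal sites lay beside genes that control HIF-1 or that act in serine and glucose metabolism. The signal of a peak is the enrichment value that the SPP caller gave it in this list. The peak of rhy-1, a gene for a membrane-bound repressor of HIF-1, had a signal of 838 and lay 888 bp upstream of the TSS. That of egl-9 had a signal of 688 and lay 1767 bp upstream, where its centre fell inside F22E12.9, a gene annotated as ncRNA. Within the same pathway hif-1 itself had a distal peak 2017 bp upstream (signal 146). Both rhy-1 and egl-9 also had proximal peaks, and hif-1 had none.

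Genes of gluconeogenesis and the glyoxylate shunt were more often nearest to a distal peak than to a proximal one. Among all 19973 protein-coding genes, 1.46% were nearest to a distal peak, against 4 of the 6 members of this list, with 4 peaks that all held an HRE core. The peak of pck-1, which encodes PEP carboxykinase, had a signal of 272 and lay 995 bp upstream between genes. Its paralog pck-2 had a peak of 72.5 centred 2331 bp downstream of its TSS, in an exon of suro-1. The study reports no HIF-1-dependent regulation of pck-2, so being nearest does not make it a target. At fbp-1, the gene for fructose-1,6-bisphosphatase, the signal was 77.6, and the centre lay 1429 bp upstream in an exon of ptr-12. For pyc-1, which encodes pyruvate carboxylase, it was 57.6, centred 3103 bp downstream. Of these 4 genes only pyc-1 was also nearest to a proximal peak.

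Serine synthesis was represented by 2 of the 5 listed genes that were found. A further name on this list, C31C9.2, was not found in the annotation, so that gene is missing from the count. F26H9.5, the phosphoserine aminotransferase gene, had 4 distal peaks with signals of 614, 320.4, 62.5 and 56.9, and 1 proximal peak. The first and second of these overlap slightly, and the first held 3 cores while the second held none. Y62E10A.13, the phosphoserine phosphatase gene, had a peak of 366 with 4 cores, 1354 bp downstream of its nearest TSS in its first intron. In sulfide and cysteine metabolism 4 of 14 genes were nearest to a distal peak. These were cysl-2 and cysl-3, of the cysteine synthase family (198 and 167), cdo-1, for cysteine dioxygenase (126.5, inside an exon of lgl-1), and sqrd-1, for sulfide:quinone oxidoreductase (80.7). Their 4 peaks each held a core, and sqrd-1 was the one with a proximal peak as well. The distal peak of sqrd-1 lay 2626 bp downstream of its TSS, centred 22 bp from the tRNA gene F02H6.t1.

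Glycolysis had 2 of 19 genes nearest to a distal peak, tpi-1, for triosephosphate isomerase (204), and enol-1, for enolase (58.5), neither of them nearest to a proximal one. Of the same 19, 4 were nearest to a proximal peak. Of 10 HIF-1 target genes known before the study, 3 were nearest to a distal peak, cysl-2, sqrd-1 and dhs-8, a dehydrogenase gene (194). For sqrd-1 this is the peak beside a tRNA gene. More of these 10 genes, 6, were nearest to a proximal peak. These lists, the choice of genes and the rule were set with earlier results of these data known, so the counts describe the list and carry no test. The nearest gene need not be the one regulated.

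Among transcription factor genes, 5 of 38 of the bHLH family, to which HIF-1 belongs, were nearest to a distal peak. The highest was the intronic peak of hlh-30, the TFEB ortholog that drives autophagy and lysosomal genes, with a signal of 304 and 4 cores. The Mondo family gene mml-1 followed (157, 5 cores, 1874 bp upstream). The Mad-like gene mdl-1 had 3 distal peaks (128, 92.8 and 92.6), the first 2 of them inside abts-4, and the Max-like gene mxl-3 had 1 (59.9). All 6 of these peaks and the distal peak upstream of hif-1 held a core, while a second peak of hif-1, 2888 bp downstream (65.0), held none. In the bZIP family 2 of 17 genes were nearest to a distal peak, skn-1, the Nrf2 ortholog, through an intronic site (179), and zip-2, a gene of the infection response (83.1). Larger families were close to the background share. Of 269 nuclear hormone receptor genes 5 were nearest to a distal peak, the highest being nhr-19 (116), nhr-21 (83.0) and nhr-40 (79.2), as were 3 of 156 collagen genes (col-78 with 175.5, col-94 with 115 and col-181 with 60.6) and 1 of 61 potassium channel genes, twk-5 (74.0). None of 78 cytosolic ribosomal protein genes was, although 9 were nearest to a proximal peak, against 1.29% of all protein-coding genes, and none of 21 G alpha or 63 ceh homeobox genes was. Some of these peaks lay beside small RNA genes. That of col-94 (115) was centred 16 bp from an snRNA gene, that of col-181 49 bp from a tRNA gene. The peak of twk-5 was centred 30 bp from a snoRNA gene.

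**Figure D1:**
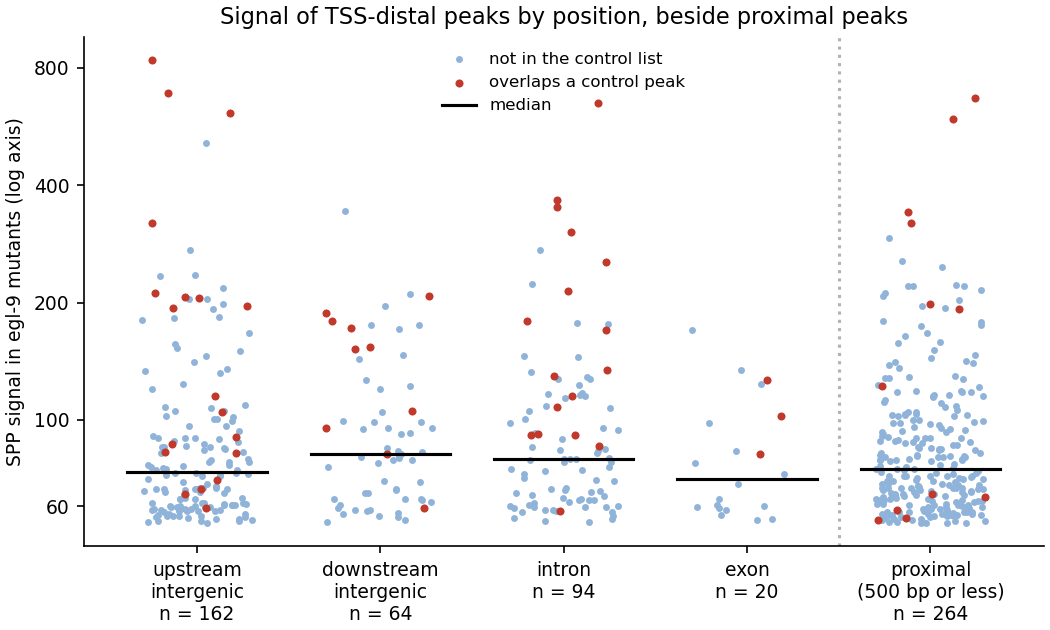
SPP signal of each peak of egl-9 mutants (log axis) for the 4 position classes of TSS-distal peaks and, right of the dotted line, for proximal peaks. Red points overlap a control peak, blue points do not, and black lines are medians, which lie between 70.5 and 81.8 in the distal classes and at 74.7 in proximal peaks.

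By position, 162 distal peaks (47.6%) lay between genes upstream of the nearest TSS, 64 (18.8%) between genes downstream of it, 94 (27.6%) in introns and 20 (5.88%) in exons, of which 12 were coding. Intergenic peaks thus numbered 226. Among 201-bp windows tiled along the genome more than 500 bp from a TSS, 38.8% were intergenic, 34.2% intronic and 27.1% exonic. The intergenic share of distal peaks was therefore above that of the sequence available, and the exonic share below it, with no test since windows are not samples. Between 501 and 1000 bp from a TSS lay 97 distal peaks, with 98 at up to 2000 bp, 112 at up to 5000 bp and 33 beyond, and the median distance was 1766 bp, against 183 bp for proximal peaks. The peaks just outside the limit were nearest to nfya-1 (501 bp, signal 60.1), ZK1248.17 (513 bp, 95.3) and enol-1 (514 bp, 58.5), and those just inside it to F22B5.4 (499 bp, 256), K12H4.5 (493 bp, 94.8) and bet-2 (487 bp, 103.2).

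The 5 distal peaks farthest from a protein-coding TSS were weaker than the leading ones. Their nearest genes were Y23H5B.5 (16193 bp, signal 62.6), C41A3.2 (15203 bp, 135), K01F9.2 (11624 bp, 54.7), Y37A1B.7 (10620 bp, 62.6) and asp-13, of the aspartyl protease family (10448 bp, 64.9). Of these, 3 lay near noncoding genes. The peak of Y23H5B.5 was centred 16 bp from the snoRNA gene Y23H5B.10, that of K01F9.2 137 bp from the miRNA gene mir-80, and that of Y37A1B.7 inside Y37A1B.337, an ncRNA gene. The peak of C41A3.2 lay in a coding exon of pks-1, a polyketide synthase gene.

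**Figure D2:**
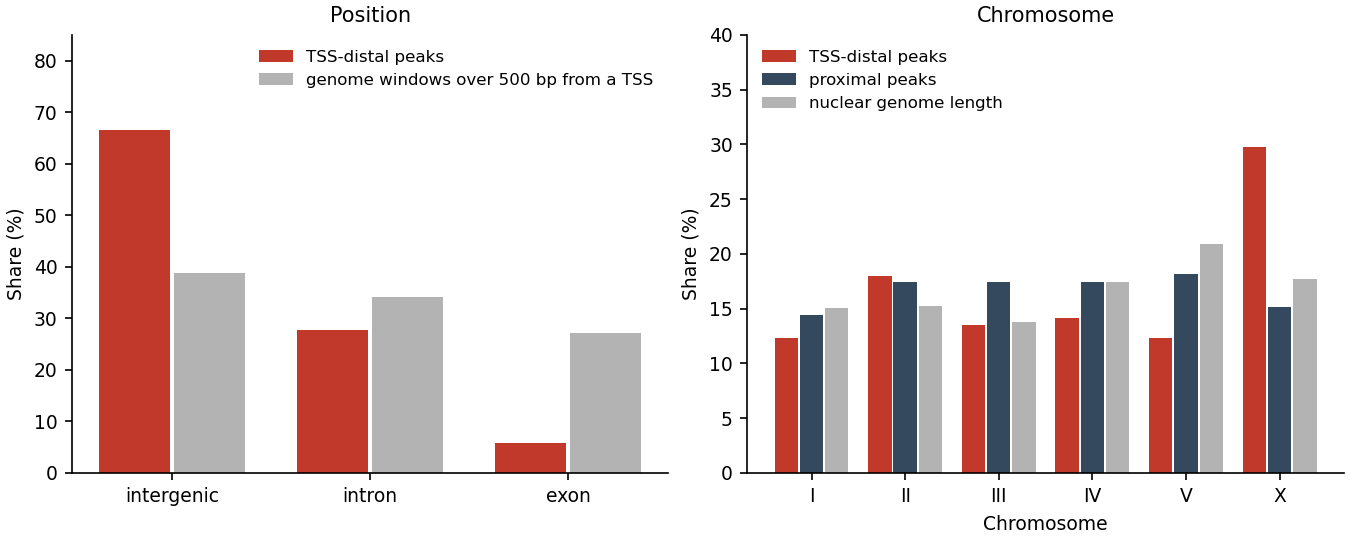
Left, share of TSS-distal peaks (red) and of genome windows over 500 bp from a TSS (grey) that were intergenic, intronic or exonic. Right, share of TSS-distal peaks (red), proximal peaks (dark) and nuclear genome length (grey) on each chromosome, where X holds 29.7% of distal peaks, 15.2% of proximal peaks and 17.7% of the genome.

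A difference in strength between distal and proximal peaks was not detectable. Their signals ran from 54.5 to 838 with a median of 78.0, and proximal signals from 54.4 to 670 with a median of 74.7. Of distal peaks 175 (51.5%, interval 46.2 to 56.7%) were in the upper part of the list, at or above its median, against 127 proximal peaks (48.1%, 42.2 to 54.1%), an odds ratio of 1.14 (Fisher exact p = 0.46, two-sided, adjusted p = 0.518). Of the 10 highest peaks 8 were distal. Of the 50 highest 31 were, which is close to the 56.3% of the whole list, and neither count was tested. Medians by class were 81.8 downstream, 79.6 in introns, 73.7 upstream and 70.5 in exons. The odds ratio was 1.63 (adjusted exact p = 0.0273) when TSSs of noncoding genes also counted, a setting that left 194 distal peaks. It was 0.969 with a limit of 250 bp.

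HRE cores were common far from promoters. Within 100 bp of the centre, 220 distal peaks held a core (64.7%, interval 59.5 to 69.6%), against 189 proximal peaks (71.6%, 65.9 to 76.7%) and 67.7% of the whole list. The odds ratio was 0.728 (Fisher exact p = 0.0795, two-sided, adjusted p = 0.119), so a difference was not detectable with these numbers. In genome windows the core was present in 23.7% of those beyond 500 bp and in 26.5% of those within it. Where a core was present, the nearest one lay a median of 34 bp from the centre in distal peaks and 30 bp in proximal peaks. At least 2 cores were present in 119 distal peaks and at least 3 in 55. Within 50 bp of the centre the odds ratio was 0.679 (adjusted exact p = 0.032), with ACGTG alone it was 1.08, and with TSSs of all gene types 1.26, so its direction depends on these choices.

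The forms of the core were then counted one at a time. ACGTG was present in 45.0% of distal peaks and 43.2% of proximal peaks, and GCGTG in 35.0% of distal and 43.9% of proximal ones. The 6-base form TACGTG was present in 20.0% of distal and 18.6% of proximal peaks, with 3.75% in windows beyond 500 bp. The E-box CACGTG, a palindrome that contains ACGTG and is also read by other bHLH factors, was present in 16.8% of distal and 11.4% of proximal peaks, with 3.23% in those windows. Within the distal peaks it ran from 22.3% in introns to 9.38% downstream. GAGAGA, a purine repeat unrelated to the HRE, was present in 44.4% of distal and 36.4% of proximal peaks, and in 53.1% of upstream but 15.0% of exonic sites, with 9.63% in windows beyond 500 bp. All of these motifs were searched on both strands, and the shares are descriptions with no test.

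**Figure D3:**
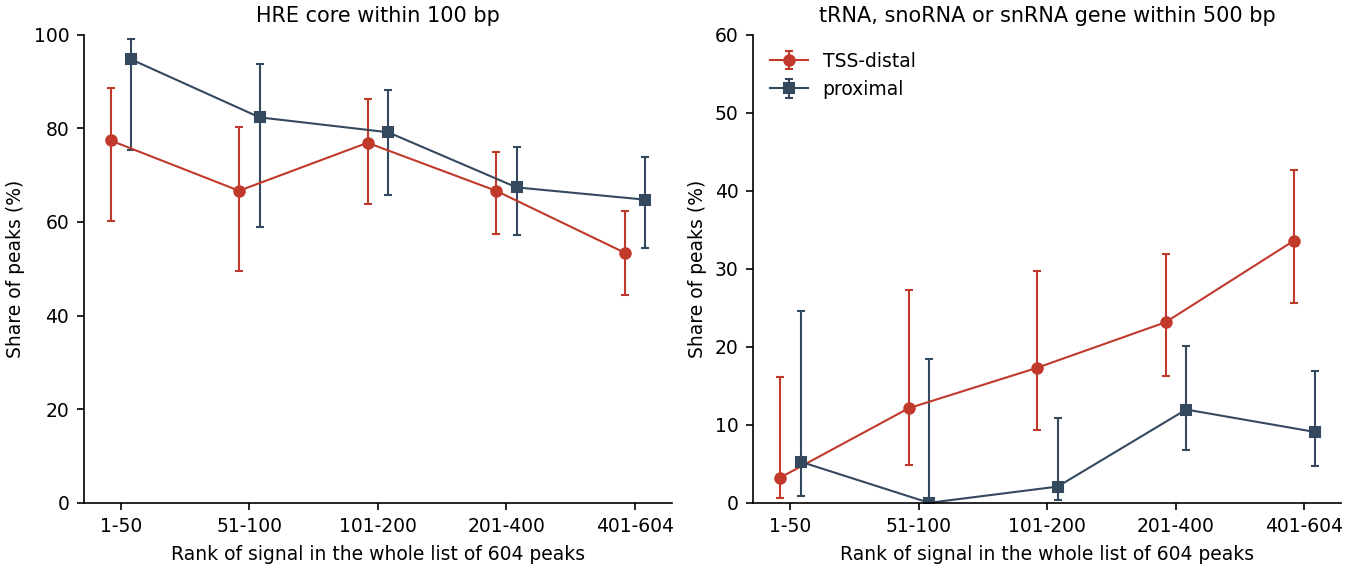
Share of peaks with an HRE core within 100 bp (left) and with a tRNA, snoRNA or snRNA gene within 500 bp (right), by rank of signal, for TSS-distal (red circles) and proximal peaks (dark squares), with Wilson 95% intervals. The core share of distal peaks lies at 77.4% in ranks 1 to 50 and 53.4% in ranks 401 to 604, and the small RNA share at 3.23% and 33.6%.

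Among distal peaks the core share was lowest, and the share near small RNA genes highest, at the weak end of the list. Of the distal peaks in ranks 1 to 50, 24 of 31 held a core (77.4%), and the shares were 66.7% in ranks 51 to 100, 76.9% in ranks 101 to 200, 66.7% in ranks 201 to 400 and 53.4% among the last 204. Leading distal peaks without one included the second peak of F26H9.5 (320.4), one in an intron of ppfr-1 (224), F55G7.5 (210.2) and W02H3.3 (207), the last 2 on the X chromosome. Proximal peaks ran from 94.7% in ranks 1 to 50 to 64.8% among the last 204. The core share varied little with distance from the TSS, at 67.0% up to 1000 bp, 59.2% up to 2000 bp, 68.8% up to 5000 bp and 60.6% beyond.

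Most intronic sites lay in introns over 1000 bp. The 94 intronic peaks fell in 79 host genes, and the median length of the intron was 2557 bp, against 68 bp over all 109516 introns of protein-coding genes. The latter median counts each intron once, whatever its length, so the medians are not a matched pair. Introns over 1000 bp held 64 of the peaks (68.1%). Such introns make up 7.73% of all introns and 52.0% of intronic sequence, counted whether or not it lies near a TSS. The strongest intronic peaks were those in ZK470.2 (649), Y62E10A.13 (366), H18N23.2 (352), hlh-30 (304) and ppfr-1, a regulatory subunit gene of protein phosphatase 4 (273). Next was gnrr-3, a gene of the GnRH receptor family (254). The first intron held 23 of them, and 46 lay upstream of another annotated TSS of the host.

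No difference between intronic and intergenic distal peaks was detectable in either share that was tested, within wide intervals. A core was present in 63 of 94 intronic peaks (67.0%, interval 57.01 to 75.7%) and 147 of 226 intergenic peaks (65.0%, 58.6 to 71.0%), an odds ratio of 1.09 (Fisher exact p = 0.797, two-sided, adjusted p = 0.797), whose direction turned under 3 other settings. A control peak overlapped 17 intronic peaks (18.1%, 11.6 to 27.1%) and 29 intergenic peaks (12.8%, 9.09 to 17.8%), an odds ratio of 1.5 (exact p = 0.225, adjusted p = 0.29). Of the intergenic sites, 119 lay between genes in tandem (52.7%), 68 between divergent genes (30.1%) and 39 between convergent genes (17.3%). The distal intergenic sequence divides almost the same way, with 54.1%, 32.1% and 13.8%.

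The leading intergenic sites show these arrangements. The peaks of rhy-1 and oac-54, an O-acyltransferase gene (512), lay between genes in tandem, and those of F26H9.5, tpi-1, cysl-2 and dhs-8 between divergent genes. The highest downstream site (343) lay 564 bp past the TSS of nspe-6, of a nematode-specific peptide family, between convergent genes. Others downstream were F55G7.5 (210.2), W02H3.3 (207), tgt-1, for a tRNA guanine transglycosylase (196.1), and ZK899.6 (188). Further upstream sites among the 15 highest distal peaks belonged to pck-1, to tag-340 (234.9, 582 bp, inside the ncRNA gene F26F4.14) and to acl-12, an acyltransferase gene (234, 3380 bp). In exons the highest sites were those at dmd-7, of the DM domain family (170.5, untranslated), pks-1 (134.6), lgl-1 (126.5), C34C12.2 (123) and F58G1.7 (102.6).

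Distal peaks often lay close to one another. Another peak of the list was centred within 2000 bp of 83 distal peaks (24.4%, interval 20.2 to 29.3%) and 38 proximal peaks (14.4%, 10.7 to 19.1%), an odds ratio of 1.92 (Fisher exact p = 0.00286, two-sided, adjusted p = 0.00514), against 20.0% of the whole list. For 70 of the 83 the neighbour was distal as well. However, 47 distal peaks overlapped another peak, and with overlapping peaks merged the odds ratio was 1.51 (adjusted exact p = 0.193), so the call does not hold in that setting. The list held 2 pairs of calls with the same start and end, at rhy-1 (838 and 64.5) and oac-54 (512 and 74.7). The difference was also not past 0.05 with limits of 250 bp (1.68, adjusted exact p = 0.0613) or 1000 bp (1.48, 0.139).

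Chains of peaks, each within 2000 bp of the next, numbered 53, and 7 held at least 3 distal peaks. They lay at F26H9.5 (4 distal of 5 peaks), ppfr-1 (4), rhy-1 (3 of 4), oac-54 with col-78 (3 of 4), W02H3.3 (3), cysl-2 with dhs-8 (3), and letm-1 with lpin-1 (3). Many of these calls overlap. In the same order the chains held 3, 2, 3, 3, 2, 2 and 3 separate regions, proximal ones included. The rhy-1 and oac-54 chains are neighbours on chromosome II. Of the chain at letm-1, a mitochondrial ion exchanger gene, and lpin-1, for a lipin, all 3 peaks were separate and held a core, although the highest reached only 96.6. In all, 291 genes were nearest to a distal peak, 31 of them to 2 and 8 to 3 or more. Besides F26H9.5, ppfr-1, rhy-1, W02H3.3 and mdl-1, these 8 were zfp-1, a zinc finger gene (176, 115 and 75.6, all in its introns), K08F11.1 (147, 122 and 95.5) and W06H8.6 (114, 100.4 and 76.2). Of the 291, 26 were also nearest to a proximal peak (8.93%), against 1.29% of all protein-coding genes, and 265 were not.

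Small RNA genes were near distal peaks more often than near proximal ones. A tRNA, snoRNA or snRNA gene lay within 500 bp of 78 distal peaks (22.9%, interval 18.8 to 27.7%) and 21 proximal peaks (7.95%, 5.26 to 11.8%), an odds ratio of 3.45 (Fisher exact p = 4.56e-07, two-sided, adjusted p = 4.11e-06), against 16.4% of the whole list and 1.08% of genome windows beyond 500 bp. By type, tRNA genes were near 39 distal peaks, snoRNA genes near 27 and snRNA genes near 12, against 8, 12 and 1 proximal peaks. The peaks were close, with 72 of the 78 centred within 100 bp. For tRNA genes the median distance was 11 bp, 14 centres were inside the gene and 18 upstream of it, while 23 of the 27 centres at snoRNA genes were upstream.

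The peaks beside small RNA genes were mostly weak, and 39 of the 78 were in ranks 401 to 604 of the list. Their signals ran from 55.2 to 212 with a median of 65.7, against 81.8 for other distal peaks, and 1 of the 78 was among the 50 highest peaks. That one (212) lay 214 bp from the tRNA gene C18A11.t2 near xol-1, the master sex determination gene. Other leading tRNA sites were those at M02F4.t1 (115), F15G9.t1 in an intron of him-4 (107), C04A11.t1 (105.5) and F46G11.t2 (85.7). The highest snRNA sites were the SL2 spliced leader genes sls-2.4 (181) and sls-2.1 (179), followed by F38E11.11 (124). The highest snoRNA sites were C51F7.4 (134), ZK994.7 in pxn-1, a peroxidasin gene (130), C10C6.8 (98.0) and T06C12.16 (92.0).

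These peaks held the HRE core less often than other distal peaks. It was present in 39 of 78 (50.0%, interval 39.2 to 60.8%), against 181 of 262 other distal peaks (69.1%, 63.2 to 74.4%), an odds ratio of 0.448 (Fisher exact p = 0.00284, two-sided, adjusted p = 0.00514). ACGTG was present in 15.4% of those near small RNA genes and 53.8% of the others, and CACGTG in 1.28% and 21.4%. GCGTG stood the other way, at 43.6% and 32.4%. In genome windows beyond 500 bp that lie near such genes ACGTG and GCGTG were each present in 16.97%. In 16 of the 39 peaks a core lay inside the small RNA gene itself. In ranks 401 to 604 a core was present in 48.7% of distal peaks near small RNA genes and 55.8% of other distal peaks. In ranks 201 to 400 these shares were 56.0% and 69.9%. Proximal peaks near small RNA genes held a core in 16 of 21 cases (76.2%), against 71.6% of all proximal peaks. What sets these shares was not tested.

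Distal peaks also lay near noncoding genes of other types, in part the same peaks as those near small RNA genes. A gene annotated as ncRNA was within 500 bp of 104 distal peaks (30.6%), against 6.67% of windows beyond 500 bp, and 40 centres were inside one. Proximal peaks were also above those windows, with 47 near such a gene (17.8%) and 25 centres inside one. The highest were F22E12.9 at egl-9, F16A11.7 in ppfr-1 (11 bp away), F26F4.14 at tag-340, C18A11.13 near xol-1 (203 bp away) and ZK829.13 at tgt-1. Long noncoding RNA genes were near 6 distal peaks, the highest (217.5) inside linc-128, 4820 bp upstream of the calmodulin gene cmd-1, and antisense RNA genes were near 4, among them anr-20 with both ppfr-1 peaks of 273 and 224. The miRNA genes mir-54 (109), mir-51 (82.6), mir-8186-1 (73.0) and mir-80 (54.7) were near 1 peak each. For miRNA genes the share was 1.18% of distal and 1.14% of proximal peaks, with 0.258% of windows beyond 500 bp. For long noncoding RNA genes it was 1.765% of distal peaks and 0.480% of those windows, with 0 proximal peaks. For antisense RNA genes it was 1.18% of distal peaks, 0.379% of proximal peaks and 0.169% of those windows. When noncoding TSSs were counted, piRNA genes aside, 146 distal peaks lay within 500 bp of one and 194 remained beyond 500 bp of any. A peak may also be near several annotated genes, and these counts overlap, also with those of small RNA genes. The peak near C18A11.13, for one, is that of 212 near the tRNA gene C18A11.t2.

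Presence in the control list was read next. A control peak overlapped 49 distal peaks (14.4%, interval 11.1 to 18.5%) and 12 proximal peaks (4.55%, 2.62 to 7.78%), an odds ratio of 3.54 (Fisher exact p = 5.9e-05, two-sided, adjusted p = 0.000177), against 10.1% of the whole list. Within the distal peaks the share was 18.1% in introns, 15.6% downstream, 15.0% in exons and 11.7% upstream. It was 21.8% near small RNA genes and 12.2% elsewhere. Shared distal peaks had a median signal of 130, and those not shared one of 73.0. The odds ratio was 1.61 (adjusted exact p = 0.147) with a limit of 1000 bp and 2.995 (0.101) among peaks that reached the lowest control signal, so the call does not hold under either.

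The strongest distal sites found in egl-9 mutants alone were those at oac-54 (512), nspe-6 (343), ppfr-1 (273), pck-1 (272) and tag-340 (234.9). All 5 of these held a core. Of the 55 distal peaks that reached the lowest control signal of 141, 23 were shared and 32 were not, though signals were not scaled between the lists. In the control list 41 of 52 peaks were distal (78.8%), and 3 of the 41 overlapped no peak of egl-9 mutants, those nearest to Y49G5A.1 (179), cutl-18 (173.5) and nhr-255 (161.5).

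**Figure D4:**
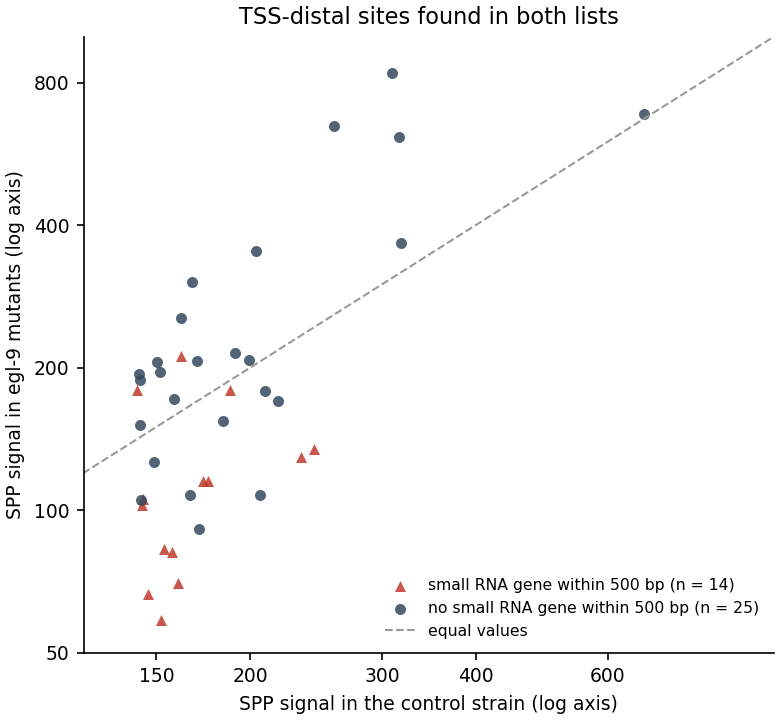
SPP signal in egl-9 mutants against SPP signal in the control strain (both axes log) for the 39 control peaks whose highest overlapping peak of egl-9 mutants was TSS-distal. Red triangles have a small RNA gene (tRNA, snoRNA or snRNA) within 500 bp, and 12 of these 14 are below the dashed line of equal values, as are 8 of the 25 dark circles. The control list held no signal under 141.1, so a site with a lower value in egl-9 mutants is below the line by construction.

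At the sites in both lists, the leading sites had the higher value in egl-9 mutants and most small RNA sites in the control strain. The lowest signal in the control list was also well above that in the egl-9 list. At rhy-1 the egl-9 mutants had 838 and the control strain 309. At ZK470.4 the egl-9 mutants had 649 and the control strain 259, and at F26H9.5 the egl-9 mutants had 614 and the control strain 316. The egl-9 site was nearly equal, with 688 for egl-9 mutants against 671 for the control strain. Of further metabolic and regulatory genes, hlh-30 was higher in egl-9 mutants (304 against 167 in the control strain), and cdo-1 (126.5 against 149) and skn-1 (179 against 209.5) were higher in the control strain. Among the 39 control peaks with a distal counterpart, the control value was the higher in 20, which included 12 of the 14 near a small RNA gene. However, the control list held no signal under 141.1, while the egl-9 list ran down to 54.4. A shared site with a value under 141.1 in egl-9 mutants thus had the higher control value by construction. Most of those 12 were such sites, so the counts cannot show a trait of small RNA sites. At C51F7.4 the egl-9 mutants had 134 and the control strain 244, and at ZK994.7 the egl-9 mutants had 130 and the control strain 234. Without scaling or replicate values these pairs are set side by side with no test.

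The X chromosome held more distal peaks than its share of proximal ones. It carried 101 of 340 distal peaks (29.7%, interval 25.1 to 34.8%) and 40 of 264 proximal peaks (15.2%, 11.3 to 20.0%), an odds ratio of 2.37 (Fisher exact p = 2.77e-05, two-sided, adjusted p = 0.000124), against 23.3% of the whole list and 18.7% of windows beyond 500 bp. Downstream sites were on X in 43.8% of cases, upstream sites in 29.0%, intronic sites in 25.5% and exonic sites in 10.0%. The share on X was 44.9% in distal peaks shared with the control list and 27.15% in those not shared. Of the 41 distal peaks of the control list, 43.9% were on X, so a high share there is not particular to egl-9 mutants. The odds ratio was 1.55 (adjusted exact p = 0.049) with TSSs of all gene types, and 2.35 (0.00112) without peaks near small RNA genes. The transgene is also on this chromosome, in both strains, and its part in the result was not tested.

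Leading X-linked distal sites included ZK470.4 (649), H18N23.2 (352), gnrr-3 (254), acl-12 (234), and cest-16, a carboxylesterase gene, in an intron of mom-1 (215). On X 60 of 101 distal peaks held a core (59.4%, interval 49.6 to 68.5%), and on the autosomes 160 of 239 (66.9%, 60.8 to 72.6%). The other chromosomes held between 12.4% (I and V) and 17.9% (II) of distal peaks. Chromosome V, with 20.9% of the nuclear genome, held 12.4% of distal and 18.2% of proximal peaks.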

How the data were processed

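HIF-1 ChIP-seq peaks were taken from the deposited lists of egl-9 mutants and of the control strain, 1 per genotype. BWA and the build WBcel235 are named in the submitters' processing notes. Per the study's methods, the authors called peaks with an SPP pipeline against pooled input and kept those reproducible between replicates. The deposited signal of a peak is the SPP value, not scaled between lists, and its lowest values differ from those the methods give, so whether both are the same quantity is not known. Summit offsets in the deposited lists, another column made by the authors, served 1 alternative only. A further column, of unstated meaning, was left unused. Neither list holds depths or replicate values. Mitochondrial peaks, 19 of egl-9 mutants and 18 of the control strain, were left out.

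Starts were read as 0-based and are given 1-based. Genes came from Ensembl release 115 (19973 nuclear protein-coding genes), and sequence from the RefSeq copy of WBcel235. Annotated TSSs of trans-spliced genes can lie downstream of the true start. A peak was placed by its midpoint, and intron or exon refers to protein-coding genes. HRE cores were sought within 100 bp of the centre, on both strands. For shares, 9 two-sided Fisher exact tests were run, with p values adjusted together by the Benjamini-Hochberg method at 0.05. Intervals are Wilson 95% intervals. Genome windows of 201 bp were tiled along the nuclear genome. Of the names in the 14 gene lists, 2 (C31C9.2 and atf-5) were not found.

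The sites, gene lists and tests were chosen with earlier results of these data known. Genes were named when nearest to or hosting the 15 highest distal peaks, the 5 highest per class, the 5 farthest, the 3 on each side of the limit, several peaks, up to 4 members per list, up to 5 noncoding genes per type, or the 5 highest peaks absent from the control list. Other names (F55G7.5, W02H3.3, letm-1, lpin-1, xol-1, cest-16, mom-1, the second peaks of named genes, and genes at both-list or chain sites) were added after their values were seen. One sequence is not reported here. Procedures were tested on simulated data. Python 3.11.15, pandas 2.3.3, NumPy 2.4.6, SciPy 1.17.1 and Matplotlib 3.10.9 were used.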

Additional observations from a re-analysis of the deposited data

How the results depend on the processing

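Of 92 alternative values, 76 kept their direction and their side of 0.05, or for a count stayed within 1.5 times. The count of distal peaks was 194 with TSSs of all gene types except piRNA, and 175 among the upper part of the list by signal. For the HRE core in distal against proximal peaks the odds ratio was 1.08 with ACGTG alone, 1.26 with TSSs of all gene types and 0.679 within 50 bp of the centre. For the core in intronic against intergenic distal peaks it was 0.831 beyond 1000 bp, 0.968 within 50 bp, and 0.986 without chromosome X, a setting chosen after seeing the data. Overlap with the control list gave 1.61 beyond 1000 bp and 2.995 among peaks at or above the lowest control signal. Neighbouring peaks gave 1.48 beyond 1000 bp, 1.68 beyond 250 bp and 1.51 with overlapping peaks merged. The upper part of signal gave 0.969 beyond 250 bp and 1.63 with TSSs of all gene types. Small RNA genes gave 0 with TSSs of all gene types, by construction, since a peak near such a gene is then no longer distal. Among results that stayed past 0.05, some moved by over 1.5 times. With TSSs of all gene types the X chromosome gave 1.55 and overlap with the control list 1.93, beyond 1000 bp small RNA genes gave 2.11, in the upper part of the list overlap gave 5.58 and the core near small RNA genes 0.252, and with ACGTG alone the last was 0.156. The causes of the other changes were not tested. No paired analysis was possible because the replicates had been merged into 1 list per genotype. The absence of replicate values and of a depth for each library limits every statement on signal.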
